A study of Mus musculus with 8 samples.

Results

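The genes described here are 34 genes of the lysosome in mouse bone marrow-derived macrophages (BMDMs): 15 encode subunits or accessory proteins of the vacuolar proton pump (V-ATPase), 4 encode proteins of the lysosomal membrane, and 15 encode hydrolases or the proteins that help them. They were taken by gene symbol from a list of lysosomal genes, a rule that names no measured value, although earlier results of these data were known when the list was drawn up. All 34 of 34 were found among the 49315 genes of the table and passed the filter on low counts. BMDMs of C57BL/6 mice, differentiated in IMDM with 10 ng/ml mouse macrophage colony-stimulating factor, were transfected with 25 nM of a gapmeR against the long noncoding RNA MAARS (4 libraries, replicates 9, 11, 13 and 15) or of a negative control gapmeR (4 libraries, replicates 2, 5, 6 and 7). A gapmeR is an antisense oligonucleotide that directs cleavage of the RNA it pairs with. Both groups therefore received a gapmeR with the lipid reagent Lipofectamine 3000, and no untransfected cells and no other MAARS gapmeR were analysed here. RNA of the lysed cells was depleted of ribosomal RNA and sequenced, and reads were counted per gene. The labels do not say whether the 4 libraries of a group came from separate mice or cultures, so p-values measure only the spread between these libraries, which may be technical.

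The lysosome is the organelle in which macrophages digest what they engulf, dead cells included. The V-ATPase acidifies it: the V1 sector, on the cytosolic face, splits ATP and turns a central rotor, and the V0 sector, in the membrane, passes protons inward as it turns. Several V0 and V1 subunits exist as alternative forms from different genes. Hydrolases made in the endoplasmic reticulum are delivered to this acid space, where each removes a particular sugar, fatty acid, sulfate or peptide. Some of those that act on lipids need a helper protein that lifts the lipid out of the membrane. Members of the MiT/TFE family (TFEB, TFE3, MITF, TFEC) are known to bind an E-box within the CLEAR element of lysosomal genes and to raise many of them together.

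In these cells the 34 genes did not move together. Of the 34, 9 were higher and 12 were lower in the MAARS-knockdown than in the control libraries, and 13 did not pass the test (edgeR quasi-likelihood test, adjusted p under 0.05 over 13051 genes). The highest fold was that of Man2b1 (lysosomal alpha-mannosidase), 53.9% higher in the knockdown libraries, followed by Atp6v0d2 (a V0 d subunit, 37.1% higher), Gusb (beta-glucuronidase, 33.1%) and Glb1 (beta-galactosidase, 31.9%). Gla (alpha-galactosidase A) was the most reduced (-28.9%), followed by Smpd1 (acid sphingomyelinase, -19.0%) and the V1 subunits Atp6v1g1 (-18.3%) and Atp6v1f (-17.7%). The median size of the log2 fold change was 0.17 over the 34 genes and 0.23 over all genes tested, and the median with its sign was -0.03 and 0.01. All genes tested include many of lower level, where noise widens fold changes. No median was taken over genes of like level, so these sizes do not show that the 34 changed less than comparable genes.

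These counts have to be read against a large background. Over the whole table, 45.4% of the genes tested were called, 21.3% higher and 24.0% lower, while 61.8% of the lysosomal genes were called, 26.5% higher and 35.3% lower. The lysosomal genes are abundant, with a median of 331 CPM (counts per 1000000 counts of the library, scaled with TMM factors) against 23.7 CPM for all genes tested, and more counts make a small change easier to call. Among the genes at or above the mean level of the least abundant of the 34 (Smpd1, 56.4 CPM), 57.3% were called, which is close to the members' share. At a fold of at least 1.5 together with the test, 13.7% of all genes were called, and 1 of the 34 (Man2b1). This share was not taken over genes of like level. The 4 libraries of one group lay wholly above those of the other for 19 of the 34 genes (8 higher, 11 lower), and for 42.1% of all genes.

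The number of lower calls depended on the scaling of the libraries. When upper-quartile factors replaced TMM, 9 of the 34 were called higher and 5 lower, beside 27.8% of all genes higher and 18.2% lower, and the members' median became 0.03. That scaling raised the median of all genes by 0.06, and the share of higher calls among all calls went from 47.0% to 60.4%. The 5 genes lower under both were Atp6v1f, Atp6v1g1, Gla, Galns and Smpd1. Across 18 alternative fits, 11 of the 21 calls held in every one (6 higher, namely Atp6v0d2, Atp6ap1, Man2b1, Gusb, Glb1 and Asah1, and the same 5 lower), and no called gene changed sign.

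**Figure D1:**
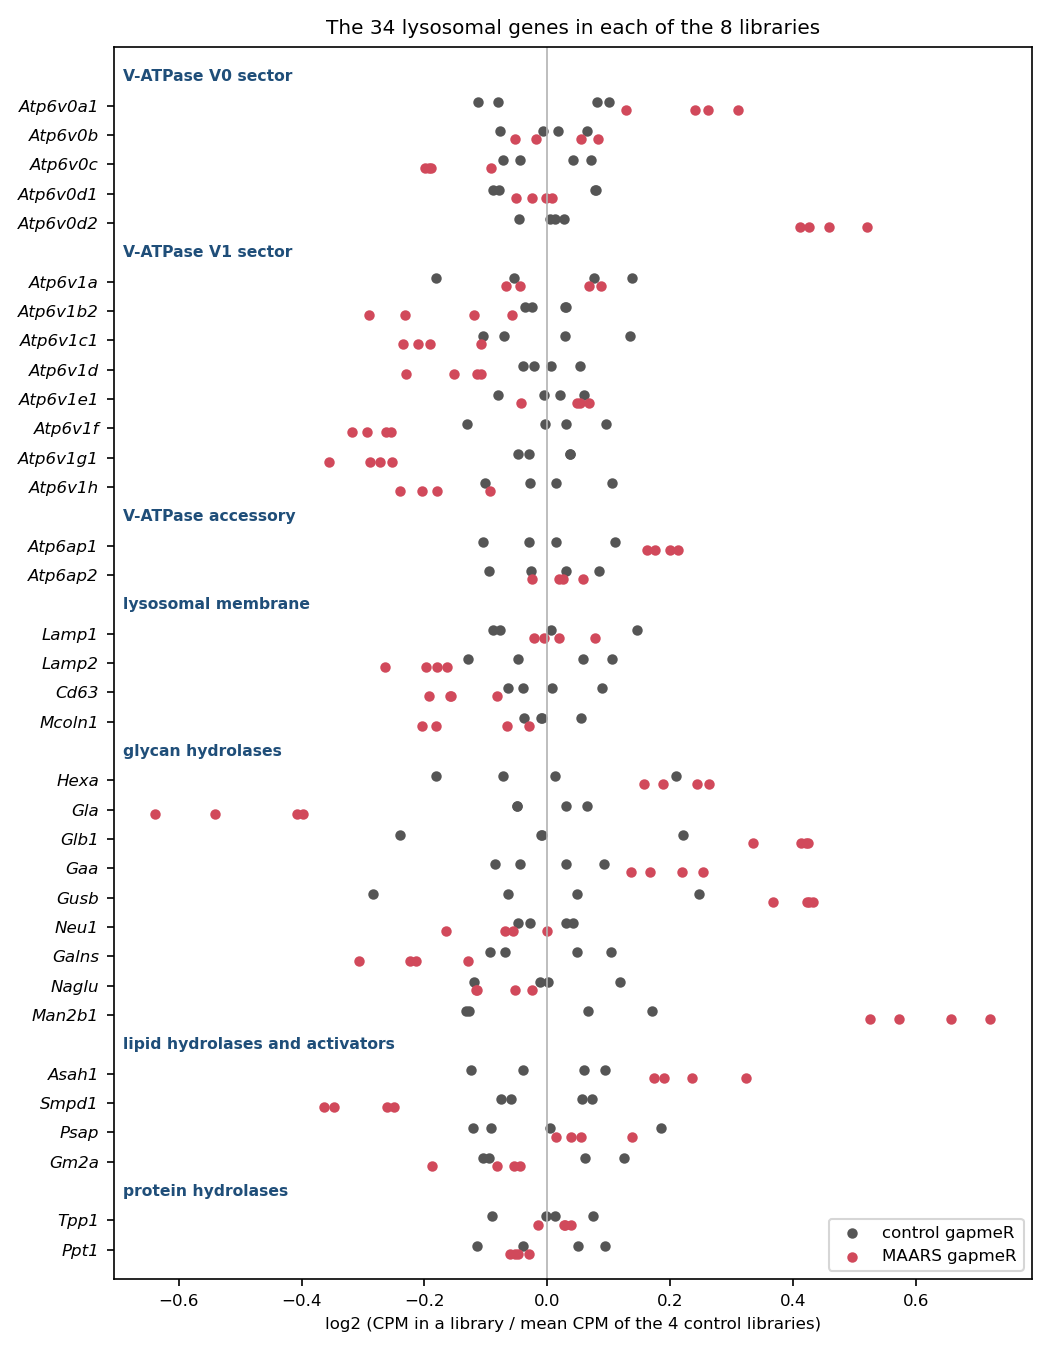
Level of each of the 34 lysosomal genes in each library, as log2 of its CPM over the mean CPM of the 4 control libraries (horizontal axis), with control libraries in grey and MAARS gapmeR libraries in red and genes grouped by role (vertical axis). The red points of Man2b1, Atp6v0d2, Gusb and Glb1 lie to the right of all grey points and those of Gla and Smpd1 to the left, while for 15 genes the groups overlap.

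**Figure D2:**
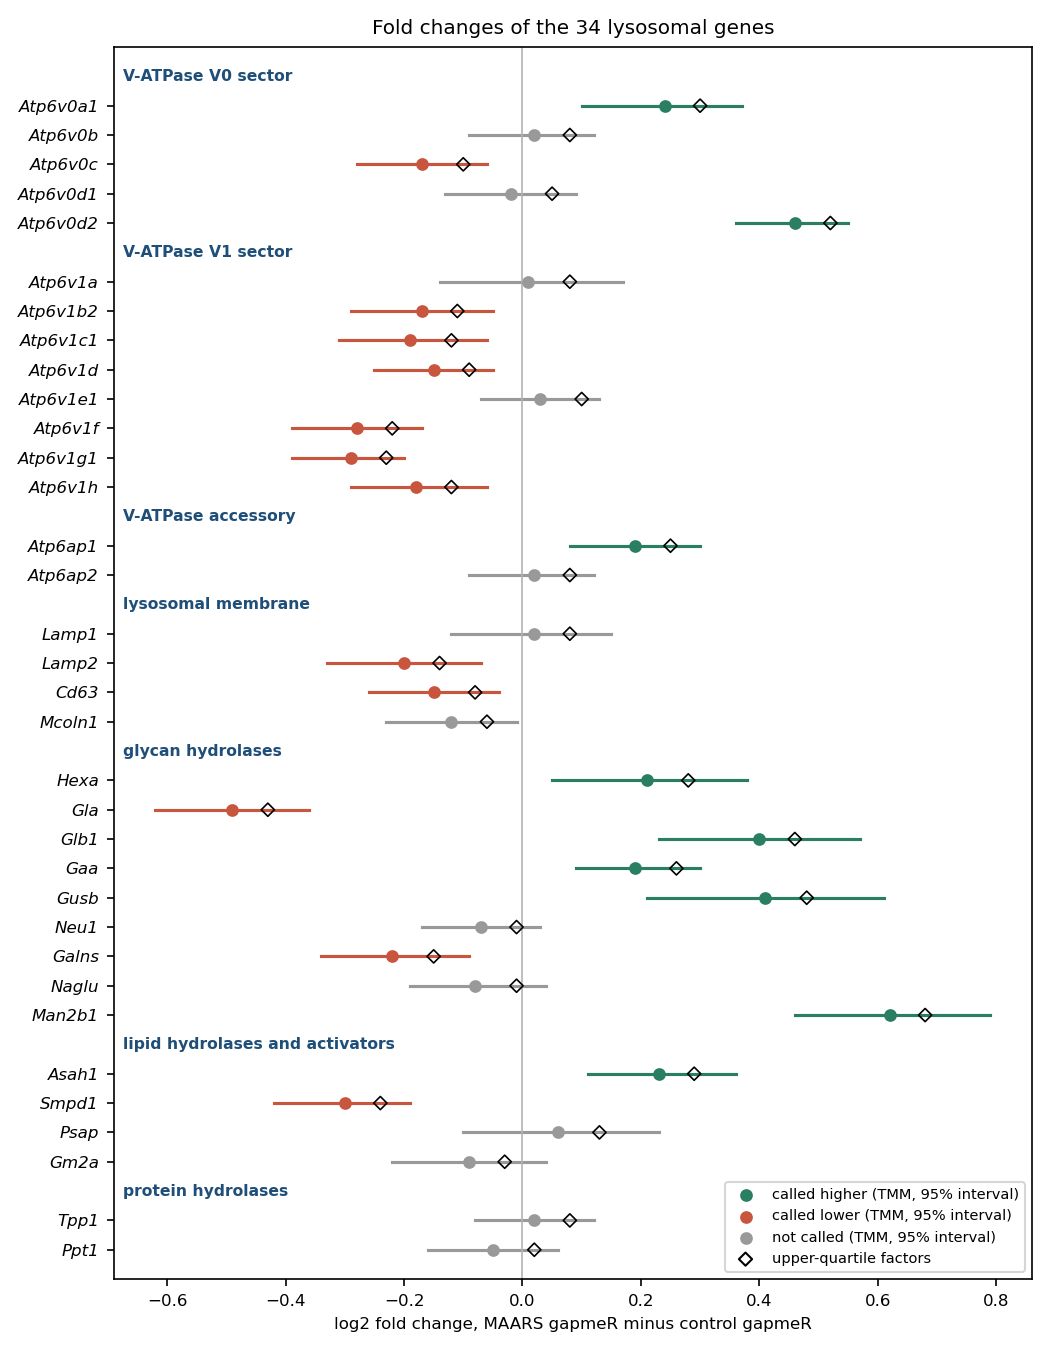
Log2 fold change of each gene (MAARS gapmeR minus control gapmeR, 4 libraries each) with its 95% interval from edgeR with TMM factors, coloured by call, and the value with upper-quartile factors as open diamonds. The diamonds lie to the right of the filled points, so the 12 lower calls shrink to 5 while the 9 higher calls remain in number.

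The targeted transcript MAARS (listed as Gm14461) was checked first. Its level was 12.2, 15.1, 12.98 and 12.2 CPM in control libraries 2, 5, 6 and 7 and 7.71, 6.41, 7.31 and 5.85 CPM in MAARS libraries 9, 11, 13 and 15, a reduction to 6.82 ± 0.844 CPM from 13.1 ± 1.36 CPM (SD, n = 4 each), log2 fold change -0.95 ± 0.11 (SE), edgeR adjusted p = 5.8e-05. Total counts were 19287279 to 20567123 in the control and 20839671 to 24541205 in the MAARS libraries, so every MAARS library was deeper. All 8 macrophage markers passed the filter on low counts, with a summed level (CPM of library totals, as for all marker sums here) of 13801 to 16336 CPM in the control and 17421 to 20534 CPM in the MAARS libraries, of which Lyz2 (lysozyme) made up most. Of these markers 5 were higher and 2 lower, the latter being Fcgr1 (log2 fold change -2.09) and the lysosomal protein Cd68 (-0.34). The change of Fcgr1 was the largest of the 8. The fibroblast markers summed to 479 to 1144 CPM and 788 to 1372 CPM, the neutrophil markers to 69.0 to 209 CPM and 75.7 to 123 CPM, and the osteoclast markers to 107 to 109.7 CPM and 105 to 113 CPM, with none called in these 3 lists and Calcr, a defining osteoclast gene, at 0 in every library. Dendritic cell markers summed to 22.4 to 26.9 CPM and 28.5 to 33.3 CPM (1 called, Itgax, higher), and the lymphocyte and the mast cell or basophil markers stayed below 3 CPM in sum, with Cd3g, Fcer1a, Mcpt4 and Tpsb2 among those at 0 in every library. The part of these markers in the lysosomal values was not tested, and in bulk RNA fewer cells of a type and less RNA per cell cannot be told apart.

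The V0 sector, the membrane part of the pump, was represented by 5 genes, of which 2 were higher (40%) and 1 was lower (20%). Over all genes tested, 21.3% were higher and 24.0% lower. Values below are in the order of control libraries 2, 5, 6 and 7 and of knockdown libraries 9, 11, 13 and 15. Atp6v0d2 encodes the form of the d subunit, the stalk that couples the rotor to V1, that is best known from osteoclasts and macrophages, and lies at chr4:19876841-19922605 (GRCm38, minus strand). Its level was 349, 345, 343 and 332 CPM in the control libraries and 491, 455, 471 and 460.1 CPM in the knockdown libraries. The groups were far apart, and the control libraries were closer to each other than for any other of the 34 genes, with a coefficient of variation of 2.18% (log2 fold change 0.46 ± 0.043 (SE), edgeR adjusted p = 1.3e-05). Its ubiquitous counterpart Atp6v0d1 was at 312, 312, 279 and 278 CPM in the control libraries and 297, 290.0, 285 and 295 CPM in the knockdown libraries. The knockdown values of Atp6v0d1 lay inside the control range (log2 fold change -0.02 ± 0.051 (SE), edgeR adjusted p = 0.804, 95% interval -0.13 to 0.09), so Atp6v0d2 was higher while no change was detected in Atp6v0d1.

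Atp6v0a1 encodes one form of the a subunit, which forms the path of the protons. It was at 416, 410.0, 367 and 358 CPM in the control libraries and 458, 481, 424 and 465 CPM in the knockdown libraries. The lowest knockdown value was just above the highest control value (log2 fold change 0.24 ± 0.061 (SE), edgeR adjusted p = 0.0087), and the call was lost with offsets for exon length and GC content (0.18, adjusted p = 0.0504). Atp6v0b, a subunit of the proton-carrying ring, did not pass (log2 fold change 0.02 ± 0.048 (SE), edgeR adjusted p = 0.79, 95% interval -0.09 to 0.12).

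The ring's main subunit, Atp6v0c, was at 71.0, 66.9, 72.5 and 65.6 CPM in the control libraries and 60.5, 60.4, 60.1 and 64.8 CPM in the knockdown libraries. Knockdown libraries 9, 11 and 13 lay together and library 15 stood apart, nearer to the lowest control (log2 fold change -0.17 ± 0.05 (SE), edgeR adjusted p = 0.0176). The call was lost with upper-quartile factors (adjusted p = 0.102), with library totals (0.124), without control 2 (0.0502) and without control 6 (0.0501). This gene is uncertain for another reason: the counts of the annotated pseudogene Atp6v0c-ps2 were about 4 times as high, 276 ± 15.4 CPM in the control and 226 ± 4.36 CPM in the knockdown libraries (log2 fold change -0.29, edgeR adjusted p = 5.9e-04), and reads of the gene and of this copy may have been split between them. Summed, the pair stood at 345 ± 17.0 CPM and 288 ± 6.01 CPM, with no overlap between groups.

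Of the 8 genes of the V1 sector among the 34, 6 were lower (75%) and none was higher. Over all genes tested, 24.0% were lower and 21.3% higher. With upper-quartile factors 2 of the 8 were lower (25%) and none was higher, beside 18.2% and 27.8% of all genes. The median log2 fold change of the 8 was -0.17 with TMM factors. The clearest were subunits of the peripheral stalk and the rotor. Atp6v1g1, the ubiquitous G subunit of the peripheral stalk, was at 301, 301, 288 and 284 CPM in the control libraries and 229.6, 246, 243 and 240.2 CPM in the knockdown libraries. Every knockdown library was below every control library (log2 fold change -0.29 ± 0.043 (SE), edgeR adjusted p = 2.6e-04). Atp6v1f, a subunit of the central rotor, was at 161, 169, 157 and 144 CPM in the control libraries and 127, 132, 132 and 129 CPM in the knockdown libraries. Its groups did not overlap either, although control 7 was the lowest of its group (log2 fold change -0.28 ± 0.051 (SE), edgeR adjusted p = 0.00101). These are the 2 genes of the sector that were also called lower with upper-quartile factors.

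The other 4 lower genes changed by less. Atp6v1b2, the B subunit that forms the catalytic head together with A, was at 668, 668, 643 and 638 CPM in the control libraries and 557, 628, 602 and 535 CPM in the knockdown libraries. Its control values were tight and its knockdown values spread, with libraries 11 and 13 nearest to the controls (log2 fold change -0.17 ± 0.056 (SE), edgeR adjusted p = 0.0258). Atp6v1c1, the C subunit that joins the stalk to the V0 a subunit, was at 381, 354, 330.3 and 322 CPM in the control libraries and 299.7, 322, 295 and 304 CPM in the knockdown libraries. Here the highest knockdown library, number 11, all but reached the lowest control (log2 fold change -0.19 ± 0.058 (SE), edgeR adjusted p = 0.0217). Atp6v1d, the D subunit of the rotor shaft, was at 166, 172, 161 and 163 CPM in the control libraries and 141, 149, 153 and 154 CPM in the knockdown libraries. Its groups were separate by a small margin (log2 fold change -0.15 ± 0.044 (SE), edgeR adjusted p = 0.0162). Atp6v1h, the H subunit that keeps detached V1 inactive, overlapped between the groups (193 ± 11.6 CPM in the control and 171 ± 7.49 CPM in the knockdown libraries (SD, n = 4 each), log2 fold change -0.18 ± 0.053 (SE), edgeR adjusted p = 0.0174).

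All 4 of these calls were lost with upper-quartile factors (adjusted p = 0.121, 0.100, 0.130 and 0.103 for Atp6v1b2, Atp6v1c1, Atp6v1d and Atp6v1h) and with library totals. Leaving out a single library also took some of these calls past the threshold, but never that of Atp6v1d. Without control 2, adjusted p was 0.0532 for Atp6v1b2, 0.0561 for Atp6v1c1 and 0.0542 for Atp6v1h, with log2 fold changes of -0.16, -0.13 and -0.14. Such a fit also has fewer libraries to test with, so a lost call need not come from the library left out. Atp6v1b2 further missed the threshold without MAARS 9 (0.0577) or MAARS 15 (0.0775) and Atp6v1c1 without MAARS 13 (0.0544). Atp6v1d did with the length and GC offsets (0.195). The catalytic A subunit, Atp6v1a, and the stalk subunit Atp6v1e1 did not pass under any alternative. Atp6v1a was at 1051 ± 102 CPM in the control and 1060.0 ± 57.5 CPM in the knockdown libraries (SD, n = 4 each), with a 95% interval of the log2 fold change of -0.14 to 0.17. For Atp6v1e1 that interval was -0.07 to 0.13. Lower calls were thus made for some subunits of the sector and not for others, which in the assembled pump are present in fixed ratio.

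Of the accessory proteins, which join the V0 sector during its assembly, Atp6ap1 was higher and Atp6ap2, the (pro)renin receptor, was not called. Atp6ap1 was at 482, 532, 497 and 458 CPM in the control libraries and 551, 566, 570.5 and 556 CPM in the knockdown libraries. The knockdown libraries were close to each other and above all controls (log2 fold change 0.19 ± 0.051 (SE), edgeR adjusted p = 0.0106). Atp6ap2 had a log2 fold change of 0.02 ± 0.048 (SE), edgeR adjusted p = 0.763, and was called higher with the length and GC offsets (0.17, adjusted p = 0.0220). Over the 15 genes of the pump, 3 were higher (20%) and 7 lower (46.7%) with TMM factors, beside 21.3% and 24.0% of all genes tested. With upper-quartile factors 3 were higher (20%) and 2 lower (13.3%), beside 27.8% and 18.2% of all genes.

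Because several subunits have alternative forms, the genes that were not among the 34 were looked at as well. Of 11 further V-ATPase subunit genes, 5 passed the filter on low counts. Of these 5, 1 was higher (20%) and 3 were lower (60%), beside 21.3% and 24.0% of all genes tested. Tcirg1, the a3 form of the a subunit, was at 865, 888, 916 and 949.7 CPM in the control libraries and 565, 589, 584 and 636 CPM in the knockdown libraries. It was the largest reduction of any V-ATPase subunit tested (log2 fold change -0.61 ± 0.051 (SE), edgeR adjusted p = 7.7e-06), and it held in every alternative. Atp6v0a2 was lower (log2 fold change -0.28 ± 0.05 (SE), edgeR adjusted p = 7.8e-04), as was Atp6v0e (log2 fold change -0.16 ± 0.044 (SE), edgeR adjusted p = 0.0133), the latter not with upper-quartile factors (adjusted p = 0.0839). Atp6v1g2, the G form best known from neurons, was higher from a low level (4.39 ± 0.472 CPM in the control and 8.03 ± 1.20 CPM in the knockdown libraries (SD, n = 4 each), log2 fold change 0.87 ± 0.14 (SE), edgeR adjusted p = 3.9e-04). Rnasek did not pass (log2 fold change 0.13 ± 0.13 (SE), edgeR adjusted p = 0.449), and 67.7% of its exons lie within another gene on the same strand.

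Per kilobase of exon the forms can be set beside each other. Tcirg1 was the main a form, at 188, 193, 199 and 206 CPM per kb in the control and 123, 128, 127 and 138 CPM per kb in the knockdown libraries. Atp6v0a1 stood at 63.4, 62.5, 55.9 and 54.7 CPM per kb and 69.8, 73.3, 64.6 and 70.9 CPM per kb. Atp6v0a1 thereby made up 22.3% ± 1.97 of the 3 a forms tested in the control and 33.7% ± 1.33 in the knockdown libraries (SD, n = 4 each), a difference of 11.4 percentage points, while their sum was lower (266 ± 4.19 CPM per kb against 207 ± 8.32 CPM per kb). Of the d forms, Atp6v0d2 made up 43.4% ± 1.23 in the control and 51.5% ± 0.795 in the knockdown libraries, and here the sum was higher (291 ± 12.9 CPM per kb against 335 ± 7.46 CPM per kb). By this measure Atp6v0d1 was the more abundant d form in the control libraries and Atp6v0d2, by a small margin, in the knockdown libraries. In CPM, without the length, Atp6v0d2 was above Atp6v0d1 in the control libraries too (means 342 and 295 CPM), so this order depends on the length. Neither the share of Atp6v0a1 nor that of Atp6v0d2 overlapped between groups. With the length of the longest principal transcript in place of all exons, a choice made after seeing the data, the differences for Atp6v0a1 and Atp6v0d2 were 11.9 and 8.09 percentage points. The share of Atp6v0d2 was then 42.7% in the control and 50.8% in the knockdown libraries. Of the G forms, Atp6v1g2 rose from 0.671% ± 0.0694 to 1.49% ± 0.188 of the pair, so Atp6v1g1 made up nearly all of it in both groups.

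**Figure D3:**
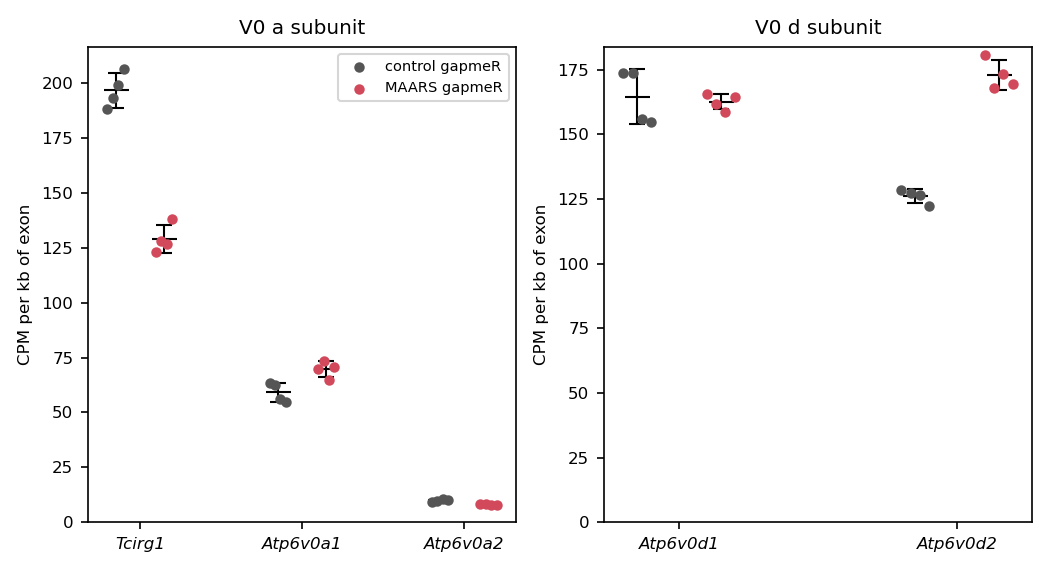
Level of the alternative a subunit genes (left) and d subunit genes (right) in CPM per kb of exon (vertical axes, from 0), one point per library, with the mean and SD of 4 libraries per group in black. Tcirg1 is lower and Atp6v0a1 higher in every MAARS gapmeR library than in any control library. Per kb of exon, Atp6v0d2 passes Atp6v0d1 by a small margin in the MAARS gapmeR libraries.

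Proteins of the lysosomal membrane gave 2 lower genes of 4 (50%) and no higher one, beside 24.0% and 21.3% of all genes tested. With upper-quartile factors none of the 4 was called. Lamp1 and Lamp2, heavily glycosylated proteins that line the inner face of the membrane, were called differently, and the difference between them was not tested. Lamp1, at 3057 ± 234 CPM in the control and 3095 ± 93.8 CPM in the knockdown libraries (SD, n = 4 each), was among the most abundant of the 34 genes and did not pass (log2 fold change 0.02 ± 0.061 (SE), edgeR adjusted p = 0.831, 95% interval -0.12 to 0.15). Lamp2, which also serves chaperone-mediated autophagy, was at 952, 1084, 1121 and 1008 CPM in the control libraries and 930.4, 908, 920.2 and 867 CPM in the knockdown libraries. All knockdown values were below all control values (log2 fold change -0.20 ± 0.058 (SE), edgeR adjusted p = 0.0147), and with upper-quartile factors the gene fell just short (-0.14, adjusted p = 0.0555).

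Cd63, a tetraspanin of late endosomes and lysosomes, was at 935, 1022, 966 and 919 CPM in the control libraries and 907, 841, 861 and 862 CPM in the knockdown libraries. The gap between the groups was small (log2 fold change -0.15 ± 0.049 (SE), edgeR adjusted p = 0.0307). This was the least stable of the lower calls, lost in 8 of 18 alternatives, among them the removal of control 5 (adjusted p = 0.0594), control 6 (0.0569), MAARS 11 (0.0872), MAARS 13 (0.0689) or MAARS 15 (0.0701). Mcoln1 (TRPML1), the calcium channel through which lysosomes signal, had a log2 fold change of -0.12 ± 0.051 (SE), edgeR adjusted p = 0.0778, and was called lower without MAARS 15 (-0.15, adjusted p = 0.0400), with 1 surrogate variable (0.0491) and with the length and GC offsets (0.0159).

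Among the hydrolases, those that act on glycans were the largest group listed. Of these 9 genes, 5 were higher (55.6%) and 2 lower (22.2%), beside 21.3% and 24.0% of all genes tested. With upper-quartile factors the 9 gave the same numbers, beside 27.8% and 18.2% of all genes. In all, 77.8% of the 9 were called, beside 57.3% of all genes at or above 56.4 CPM. Their median log2 fold change was 0.19. Man2b1, which trims mannose from the glycans of digested glycoproteins (chr8:85083270-85098282, plus strand), was at 737, 907, 843 and 735 CPM in the control libraries and 1328, 1160.2, 1198 and 1272 CPM in the knockdown libraries. The lowest knockdown library exceeded the highest control library by a wide margin (log2 fold change 0.62 ± 0.075 (SE), edgeR adjusted p = 6.5e-05), and leaving out single libraries gave log2 fold changes of 0.58 to 0.68. Gusb, which removes glucuronic acid from glycosaminoglycans (chr5:129989011-130003049, minus strand), was at 736, 845, 681 and 584 CPM in the control libraries and 959.9, 956, 918 and 954 CPM in the knockdown libraries. Control 5 was far above control 7, and this gene had the widest control spread of the 34 (coefficient of variation 15.3%), yet all knockdown libraries were higher (log2 fold change 0.41 ± 0.09 (SE), edgeR adjusted p = 0.00333). Glb1, which removes terminal galactose and is the enzyme behind the senescence-associated stain, was at 90.9, 107, 91.0 and 77.5 CPM in the control libraries and 122, 123, 115 and 123 CPM in the knockdown libraries. Control 5 was again the highest and control 7 the lowest of the controls, with no overlap between the groups (log2 fold change 0.40 ± 0.079 (SE), edgeR adjusted p = 0.00174), and 5.49% of its exons overlap another gene on the same strand.

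The other glycan hydrolases that rose did so by less. Gaa, the acid alpha-glucosidase that breaks down glycogen, was at 142, 157, 149.97 and 138 CPM in the control libraries and 175, 161, 171 and 165 CPM in the knockdown libraries. Its groups were separate (log2 fold change 0.19 ± 0.05 (SE), edgeR adjusted p = 0.00802), but with the length and GC offsets the value was 0.05 (adjusted p = 0.504). Hexa, the alpha chain of beta-hexosaminidase A, was at 1413, 1717, 1498 and 1309 CPM in the control libraries and 1782, 1655, 1692 and 1758 CPM in the knockdown libraries. Here the groups overlapped, because control 5 was above 2 of the knockdown libraries (log2 fold change 0.21 ± 0.075 (SE), edgeR adjusted p = 0.0377), and the call was lost on leaving out control 2, 6 or 7 or any of the knockdown libraries (adjusted p from 0.0514 to 0.0943, with log2 fold changes of 0.16 to 0.23). Moreover, 12.8% of the exons of Hexa overlap a gene on the other strand.

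In the opposite direction, Gla, which removes alpha-linked galactose from globotriaosylceramide (chrX:134588149-134601125, minus strand), was at 495, 523, 536 and 496 CPM in the control libraries and 329, 387, 389 and 352 CPM in the knockdown libraries. Each knockdown library was below each control library, with the widest spread of any of the 34 genes within the knockdown group, a coefficient of variation of 7.90% (log2 fold change -0.49 ± 0.06 (SE), edgeR adjusted p = 7.1e-05). Galns, a sulfatase of keratan sulfate and chondroitin sulfate, was at 164, 185, 178 and 162 CPM in the control libraries and 139, 158, 149 and 148 CPM in the knockdown libraries. It too was lower in every knockdown library (log2 fold change -0.22 ± 0.056 (SE), edgeR adjusted p = 0.00871). Neu1, the lysosomal sialidase, and Naglu, which acts on heparan sulfate, did not pass (-0.07 ± 0.046 (SE), edgeR adjusted p = 0.235 and -0.08 ± 0.054 (SE), edgeR adjusted p = 0.272), and Naglu was called lower with the length and GC offsets (-0.17, adjusted p = 0.0469). Beta-galactosidase and alpha-galactosidase A, which both remove galactose, therefore differed in opposite directions.

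The lipid hydrolases and their helpers also split. Asah1, the acid ceramidase, was at 457, 519, 532 and 485 CPM in the control libraries and 624, 568, 587 and 562 CPM in the knockdown libraries. Smpd1, which makes ceramide from sphingomyelin, was at 59.8, 65.6, 64.8 and 59.1 CPM in the control libraries and 49.0, 52.4, 52.0 and 48.5 CPM in the knockdown libraries. Neither gene overlapped between the groups: Asah1, which uses up ceramide, was higher (0.23 ± 0.058 (SE), edgeR adjusted p = 0.00697) and Smpd1, which releases it, was lower (-0.30 ± 0.053 (SE), edgeR adjusted p = 8.0e-04), and both calls held in all 18 alternatives. These values are RNA levels, and neither enzyme activity nor ceramide was measured, so the level of ceramide cannot be read from them. Psap, the precursor of the saposins that present lipids to hydrolases, was at 16526, 20032, 17670.0 and 16203 CPM in the control libraries and 19373, 17792, 18087 and 18294 CPM in the knockdown libraries. Control 5 was above all knockdown libraries and the groups overlapped (log2 fold change 0.06 ± 0.076 (SE), edgeR adjusted p = 0.527, 95% interval -0.10 to 0.23). Psap alone took 1.62 to 1.97% of all counts of a library, and the 34 genes together 3.13 to 3.72%. Gm2a, the activator that lets beta-hexosaminidase A reach ganglioside GM2, did not pass (log2 fold change -0.09 ± 0.06 (SE), edgeR adjusted p = 0.246).

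Neither hydrolase of the last group passed the test. Tpp1, a tripeptidyl peptidase, had a 95% interval of the log2 fold change of -0.08 to 0.12, and Ppt1, which removes fatty acids from proteins, one of -0.16 to 0.06. The knockdown libraries agreed closely for Ppt1 (coefficient of variation 0.934%), the tightest of the 34 genes.

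Per kilobase of exon, the levels of the 34 genes in the control libraries spanned a wide range. Psap was at 6417 ± 632 CPM per kb, Lamp1 at 1143 ± 87.3 and Hexa at 744 ± 86.9 (SD, n = 4), followed by Cd63 (261 ± 12.3) and Atp6v1g1 (259 ± 8.002), which did not differ beyond their spread. The lowest by this measure were Mcoln1 (11.6 ± 0.321) and Smpd1 (18.7 ± 0.997). The order below Psap and Lamp1 depends on the length used. With the longest principal transcript, Cd63 came to 866 CPM per kb, above Hexa (744) and far above Atp6v1g1 (259), and Mcoln1 came to 42.5, so that Smpd1, at 25.8, was the lowest.

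**Figure D4:**
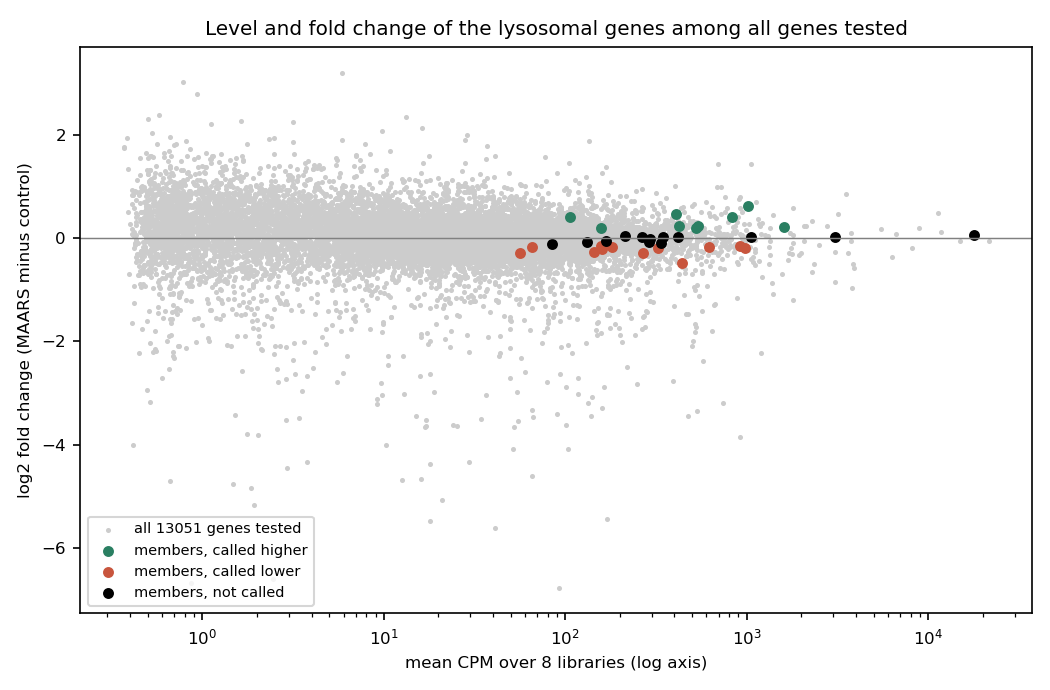
Mean CPM over the 8 libraries (horizontal, log axis) against the log2 fold change, MAARS gapmeR minus control gapmeR (vertical), for the 13051 genes tested in grey and the 34 lysosomal genes in colour. The lysosomal genes lie in the right part of the cloud, from 56.4 CPM (Smpd1) to 17997 CPM (Psap), and within -0.49 (Gla) and 0.62 (Man2b1).

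Many of the 34 genes shared a pattern that the comparison does not use, in the spread among the control libraries. Control 5 was the highest of the 4 controls for 21 of the 34 genes (61.8%) and the lowest for none, whereas over all genes tested it was the highest for 26.5%. Most of these were outside the pump: control 5 was the highest for 14 of the 19 other genes (73.7%), while among the 15 V-ATPase genes control 2 and control 5 were each the highest for 7 (46.7%). Control 7 was the lowest for 27 of the 34 (79.4%) and the highest for none, against 28.5% lowest over all genes. This held for 13 of the 15 V-ATPase genes and for 14 of the 19 others. These are the libraries at the ends of the second principal component of all genes (10.4% of the variance, control 5 at 21.2 and control 7 at -20.5), and what sets them apart was not tested. Among the 4 knockdown libraries, MAARS 9 was the highest for 13 of the 34 and the lowest for 9, but the pump and the other genes differed. It was the highest for 11 of the 19 genes outside the pump (57.9%), against 27.7% of all genes tested, and the lowest for 3. Of the 15 V-ATPase genes it was the highest for 2 and the lowest for 6. The median coefficient of variation was 6.33% in the control and 3.62% in the knockdown libraries, against 8.29% and 7.65% over all genes. All genes tested include many of lower level, where noise widens this spread and blurs the order of the libraries. Neither these coefficients nor the shares above were taken over genes of like level. Gusb, higher in the comparison, and Smpd1, lower in it, both had control 5 as the highest and control 7 as the lowest control.

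Promoter sequence was described as well. Because the CLEAR element is known from lysosomal genes, a high share of its E-box in a list of such genes is not an independent result. In RefSeq's table for GRCm38.p6, 27 of the 34 genes had an entry of 300 bases, 250 before the start and 50 after it. Not matched were Asah1, Atp6v0d2, Atp6v1b2, Atp6v1c1, Atp6v1g1, Atp6v1h and Galns. The palindrome CACGTG reads the same on both strands and is the E-box within the CLEAR element. It was in 9 of the 27 (33.3%) and in 8.09% of the 27025 genes of the table, which were not filtered by their level in these cells. The full 10-base CLEAR palindrome, which contains it, was in none of the 27 and in 0.370% of all genes. Of the 9 genes with CACGTG, 2 were called higher (Glb1, Gaa), 1 lower (Gla) and 6 not at all (Atp6v0b, Atp6v0d1, Atp6v1a, Lamp1, Mcoln1, Naglu). Of the 18 without it, 5 were higher, 6 lower and 7 not called.

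The stretches that hold the motif are shown for 1 gene of each outcome and for both that were higher, from RefSeq (GRCm38.p6), 5′ to 3′ on the gene's strand, with CACGTG in capitals and all bases upstream of the start. Lamp1, not called, carries 4 copies within its last 70 bases before the start, Glb1 and Gaa 1 each, and Gla 2.
Lamp1, chr8:13159091-13159160, + strand: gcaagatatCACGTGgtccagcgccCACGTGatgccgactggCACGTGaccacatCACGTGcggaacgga
Glb1, chr9:114400998-114401057, + strand: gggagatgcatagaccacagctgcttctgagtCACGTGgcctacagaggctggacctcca
Gaa, chr11:119267793-119267852, + strand: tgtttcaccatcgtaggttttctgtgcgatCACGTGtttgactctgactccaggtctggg
Gla, chrX:134601176-134601245, - strand: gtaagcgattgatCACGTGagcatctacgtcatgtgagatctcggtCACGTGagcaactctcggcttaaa
Lamp1, with the most copies, had a 95% interval of the log2 fold change of -0.12 to 0.15. Gla, the most reduced of the 34, has its pair 194 and 227 bases before the RefSeq start. The GENCODE start of Gla lies farther upstream (134601125), nearer to the pair, so these distances depend on the annotation. Whether the motif goes with the changes was not tested. A match describes these letters and does not show that a factor was bound.

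The other genes of the same pathway, from lists of related genes, were read in the same way. Over all genes tested, 21.3% were called higher and 24.0% lower. The transcripts of the MiT/TFE factors themselves changed little: Tfeb (0.06 ± 0.055 (SE), edgeR adjusted p = 0.423), Tfe3 (-0.03 ± 0.051 (SE), edgeR adjusted p = 0.612) and Tfec (-0.05 ± 0.059 (SE), edgeR adjusted p = 0.545) did not pass, and Mitf was higher by a small amount (0.19 ± 0.068 (SE), edgeR adjusted p = 0.043) with overlapping groups, a call lost without control 2, 5 or 7, without MAARS 9, 11 or 13, and with the length and GC offsets. RNA levels do not show how active these factors were. Of all 19 factors and regulators, 3 were higher (15.8%) and 4 lower (21.1%). Flcn, which acts on the Rag GTPases that hold TFEB in the cytosol, was higher (0.28 ± 0.065 (SE), edgeR adjusted p = 0.00439), and Lamtor1 (-0.25 ± 0.048 (SE), edgeR adjusted p = 0.00149), Rragc (-0.20 ± 0.047 (SE), edgeR adjusted p = 0.00505) and Fnip1 (-0.17 ± 0.042 (SE), edgeR adjusted p = 0.00633), of the same lysosomal nutrient-sensing machinery, were lower.

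The list of other lysosomal hydrolases included larger changes than the 34 genes did. It also holds proteins that are not hydrolases, such as Hgsnat, a transferase, and Npc2, a sterol carrier. Of 33, 6 were higher (18.2%) and 14 lower (42.4%), beside 21.3% and 24.0% of all genes tested. In all, 60.6% of the 33 were called, beside 57.3% of all genes at or above 56.4 CPM. Some of the 33, such as Arsg and Naaa, lie below that level, so these shares are not over genes of like level. At a fold of at least 1.5, 8 of the 33 passed, beside 13.7% of all genes, again not of like level. Among the higher were Galc, the galactosylceramidase (0.81 ± 0.083 (SE), edgeR adjusted p = 2.1e-05), Hgsnat, which acetylates heparan sulfate (0.75 ± 0.081 (SE), edgeR adjusted p = 3.2e-05), and Fuca2, a fucosidase (0.26 ± 0.054 (SE), edgeR adjusted p = 0.00221). Among the lower were Aga, the aspartylglucosaminidase (-0.68 ± 0.053 (SE), edgeR adjusted p = 6.1e-06), and Smpdl3a, a relative of acid sphingomyelinase (-0.69 ± 0.06 (SE), edgeR adjusted p = 8.3e-06). With upper-quartile factors the split was 11 higher and 12 lower.

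Of 24 further membrane and transport genes tested, 6 were higher (25%) and 10 lower (41.7%), beside 21.3% and 24.0% of all genes tested. The endolysosomal cation channels Tpcn1 (0.57 ± 0.091 (SE), edgeR adjusted p = 4.6e-04) and Tpcn2 (0.43 ± 0.065 (SE), edgeR adjusted p = 2.9e-04) and the sialic acid exporter Slc17a5 (0.42 ± 0.067 (SE), edgeR adjusted p = 4.4e-04) were higher. Lower were Clcn7, the chloride-proton exchanger (-0.66 ± 0.055 (SE), edgeR adjusted p = 7.1e-06), the iron transporter Slc11a2 (-0.44 ± 0.042 (SE), edgeR adjusted p = 1.3e-05) and the nucleoside transporter Slc29a3 (-0.53 ± 0.062 (SE), edgeR adjusted p = 5.3e-05). Of 11 genes of delivery to the lysosome 1 was higher and 1 lower (9.09% each), both below the shares over all genes. Sort1, a sorting receptor, was higher, at 93.4 ± 22.8 CPM in the control and 242 ± 16.1 CPM in the knockdown libraries (SD, n = 4 each) (1.37 ± 0.14 (SE), edgeR adjusted p = 2.1e-05). Sumf1, which activates sulfatases, was lower (-0.19 ± 0.045 (SE), edgeR adjusted p = 0.00601).

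For the assembly of the pump, 3 of 10 genes were higher (30%) and 4 lower (40%), beside 21.3% and 24.0% of all genes tested. The higher genes were Rogdi (0.69 ± 0.10 (SE), edgeR adjusted p = 2.6e-04), Dmxl2 (0.41 ± 0.06 (SE), edgeR adjusted p = 2.4e-04) and Wdr7 (0.37 ± 0.067 (SE), edgeR adjusted p = 0.00107), the mammalian parts of the RAVE-like complex that rejoins V1 to V0, all with no overlap between groups. Vma21, the chaperone of V0 assembly, was lower (-0.41 ± 0.055 (SE), edgeR adjusted p = 1.3e-04), as were Ncoa7 (-0.45 ± 0.053 (SE), edgeR adjusted p = 5.1e-05) and Tldc1 (-0.27 ± 0.074 (SE), edgeR adjusted p = 0.0114), of a family of V-ATPase-binding proteins.

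**Figure D5:**
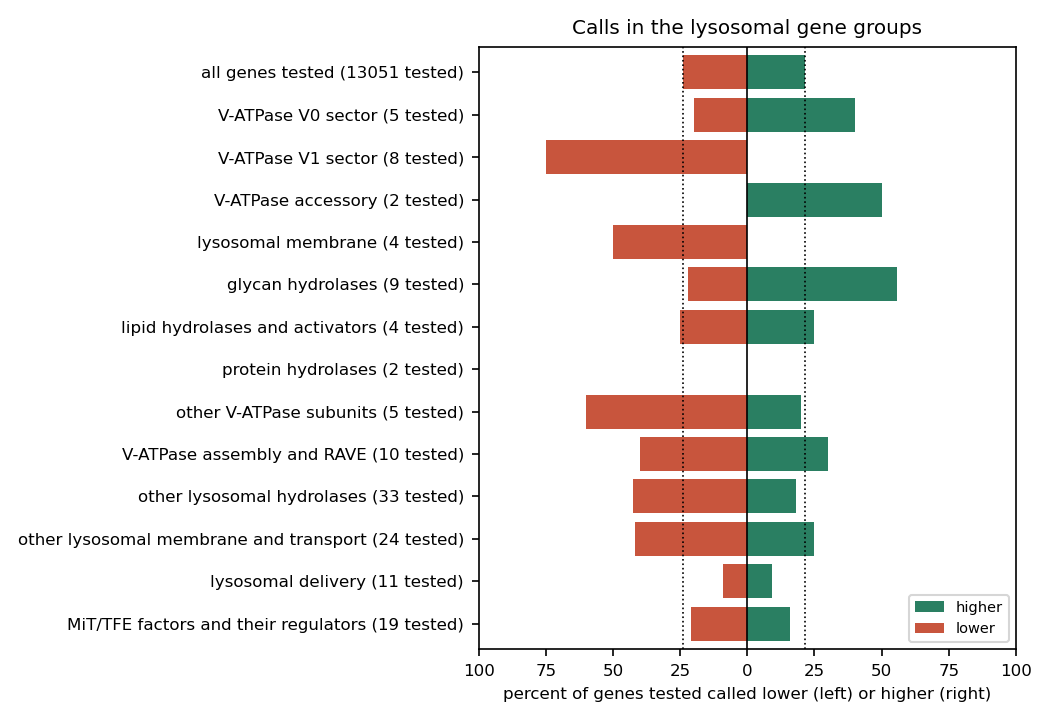
Percent of the genes tested in each group that were called lower (left of 0) or higher (right of 0) in the MAARS gapmeR against the control gapmeR libraries (edgeR, adjusted p under 0.05), with dotted lines at the percentages over all 13051 genes (24.0% lower, 21.3% higher). The 8 listed genes of the V1 sector have lower calls alone (6 of 8, and 2 of 8 with upper-quartile factors; Atp6v1g2, higher, is counted with the other V-ATPase subunits), and the glycan hydrolases have more higher than lower calls (5 against 2); several groups hold under 10 genes.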

How the data were processed

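RNA-Seq counts of 8 BMDM libraries, 4 with control gapmeR and 4 with MAARS gapmeR, were grouped by the labels. The authors trimmed paired reads with Trimmomatic 0.36, aligned them with STAR 2.5.2b and counted them per gene with featureCounts (Subread 1.5.2), per the labels' processing notes, on GRCm38. The deposited values are raw counts of 49315 genes. Strand setting and treatment of reads that map to several places are not given in the sources used here, so values of genes with close copies or overlapping neighbours are uncertain.

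Counts were analysed with R 4.3.3 and edgeR 4.0.16: filterByExpr (minimum count 10, minimum total 15, which left 13051 genes), TMM factors, glmQLFit and glmQLFTest, with Benjamini-Hochberg adjustment over all genes tested and calls at an adjusted p under 0.05. CPM are TMM-scaled. Errors beside CPM are SDs over libraries, and 95% intervals are those of the fit. Symbols, positions and exon lengths came from GENCODE M21 on GRCm38, which held 99.47% of the gene identifiers, and promoters from RefSeq (GRCm38.p6). Library totals were 19287279 to 24541205 counts, which limits the precision most for genes of low level. No 2 libraries of a group agreed within sampling noise (chi-square of 4.24 to 15.1 per gene), so spread beyond the noise of counting limits it as well. The procedure was tested on simulated data.

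The alternatives were RLE factors, upper-quartile factors, library totals, DESeq2 1.42.0, limma-voom (limma 3.58.1), a robust prior, no filter, a mean count of at least 10, 1 surrogate variable (sva 3.50.0), loess offsets for exon length and GC content (span 0.3), an adjusted p under 0.01 for gene counts, and each library left out in turn. Subunit shares per principal transcript, and without each library in turn, were added after seeing the data.

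The members, the other lists and the rule for named genes were chosen with earlier results of these data known. The rule names MAARS, all members, the MiT/TFE factors, each further V-ATPase subunit tested and, per other list, the 3 called genes of lowest p for each direction whose groups do not overlap. Some genes that the rule names are not reported here. Atp6v0c-ps2 was named after its values were seen. No set of genes was tested as a whole.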

Additional observations from a re-analysis of the deposited data

Results flagged for a closer look

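Among 70 groups of 4 libraries examined (each of the 34 members and MAARS in both groups), 3 held a library whose gap to its nearest neighbour was large for the range of the group (Dixon's 95% limit). Chance flags about 1 in 20 groups, so 3 of 70 is no more than chance gives. Atp6v0c stood at 64.8 CPM in MAARS 15, against 60.1 to 60.5 CPM in the other MAARS gapmeR libraries. Glb1 stood at 115 CPM in MAARS 13, against 122 to 123 CPM in the others, and Gusb stood at 918 CPM in MAARS 13, against 954 to 959.9 CPM. In all 3 genes the library that stood apart was the one nearest to the controls.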

How the results depend on the processing

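The 34 genes were each recomputed under 18 alternatives, 612 values in all. Of these, 570 stayed on their side of the threshold, 37 fell short of it and 5 newly passed it. No called gene changed sign, while 7 genes that were not called did so in 21 values, each of these genes lying within 0.05 of 0 on the log2 scale as reported. MAARS stayed lower in all 18.

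Scaling and threshold mattered most for the counts. Of the 34, 12 were called lower, but 5 with upper-quartile factors, 6 with library totals and 5 at an adjusted p under 0.01, and 8 to 12 without each library in turn. The median log2 fold change of the 34 was -0.03, and 0.03 with upper-quartile factors and with library totals. In the list of other lysosomal hydrolases, 6 were called higher, but 11 with either of those scalings. Of all genes, 2782 were called higher, and 1740 at an adjusted p under 0.01. With the length and GC offsets, 4 genes of lysosomal delivery were called lower in place of 1. Of the MiT/TFE factors and regulators, 4 were called lower, and 2 with library totals. For this list, 3 were called higher, and 1 to 2 without each library in turn, with 1 on leaving out control 7, MAARS 9 or MAARS 13. The cause of these shifts was not tested.

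No paired analysis was possible because the groups share no replicate number (2, 5, 6 and 7 against 9, 11, 13 and 15). All MAARS libraries were deeper than all control libraries, so depth and group cannot be told apart. The differences of most members are under 1.5-fold, and 1 gapmeR sequence stands for the knockdown.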
